A study of Rattus norvegicus with 12 samples.

Results

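The renin-angiotensin genes Agt, Ace, Agtr1a, Agtr1b, Agtr2, Mas1, Agtrap and Atp6ap2 were followed in left atrial RNA of rats, as 8 of the 21239 genes with counts, chosen by symbol. In the renin-angiotensin system, the protein angiotensinogen is cut to a short peptide, which is converted by angiotensin-converting enzyme into angiotensin II, which acts on the type 1 receptor to constrict vessels and, in the heart, to promote growth and fibrosis. The type 2 receptor and the Mas receptor, which binds a shorter angiotensin peptide, are known mainly for opposing actions. Valsartan blocks the type 1 receptor, so these genes are those of the pathway that both drugs of the study address.

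The study sequenced 12 libraries, 3 in each of 4 groups of male rats purchased at 14 weeks of age, with 4 weeks of treatment. Wistar-Kyoto rats, a normotensive strain (WKY group), and spontaneously hypertensive rats (SHR group) were given saline (7.5 ml/kg/day). Valsartan at 30 mg/kg/day was given to the SHRs of the ARB group, and the SHRs of the ARNI group were given sacubitril/valsartan, which adds an inhibitor of the peptidase neprilysin, at 60 mg/kg/day. The amount of valsartan within the combined dose is not given in the sources used here. Each library is from 1 rat per the study's methods.

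The title and the library name disagreed on the strain for the 6 WKY and SHR libraries, and the strain field named Wistar-Kyoto for all 12. The libraries were grouped by name. Ndufa10l1 had no reads in the 3 libraries named WKY and 54.0 to 119 CPM in the other 9, so the named split coincided with a split in the data. The labelled tissue did not match its markers in every library. Myl7, the atrial myosin light chain, was at 0.889 to 15.9 CPM and Myl2, the ventricular one, at 3489 to 3776 CPM in the WKY libraries. ARNI replicate 2 was like them, with Myl7 at 9.67 and Myl2 at 4161 CPM, and SHR replicate 2 and ARB replicate 3 carried both, with Myl2 at 2298 and 2573 CPM. Strain and chamber markers therefore cannot be told apart between the SHR and WKY groups. Of the 8 atrial markers 8 passed as higher in SHR, and of the 5 ventricular markers 1 passed as lower. ARB replicate 2 and ARNI replicate 3 held adipocyte transcripts, with Adipoq at 192 and 61.7 CPM against at most 4.71 CPM elsewhere. Total counts ranged from 11252361 to 15823525, so that 3 reads, the upper limit for a gene with no reads, came to 0.190 to 0.267 CPM (counts per 1000000 of the library total).

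Of the 8 genes, 5 were measured well, with at least 13 reads in every library. These were Agt, Ace, Agtr1a, Agtrap and Atp6ap2. Mas1 had 2 to 22 reads per library, and the receptors Agtr1b and Agtr2 had none or a single read. Agtrap, whose product binds the type 1 receptor and promotes its removal from the cell surface, was the only member that passed the test between SHR and WKY, and no member passed in a comparison with a drug. "Passed" is used here where the p adjusted by the Benjamini-Hochberg method was at most 0.05 in edgeR's quasi-likelihood test over all genes. By this rule 20.6% of all genes tested passed between SHR and WKY, and 0 passed in each comparison with a drug. In bulk tissue, fewer cells of a type and less RNA per cell cannot be told apart.

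The proximal promoters of 4 members are shown first, Agtrap and Atp6ap2 because their SHR and WKY libraries did not overlap, and Ace and Agtr1a because they encode the converting enzyme and the target of valsartan. Each is the 250 bases before the start of the gene in RefSeq's GRCr8 assembly, 5′ to 3′ on the strand of the gene. Capitals mark matches on either strand to the TATA box TATAAA, the GC box GGGCGG, the CCAAT box CCAAT and the E-box CACGTG. Neighbouring capitals can be overlapping matches, as for GGGCGGGCGG in Ace and for CCGCCCCAAT in Atp6ap2, where a GC box read on the opposite strand runs into a CCAAT box.

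Agtrap, chr5:163802175-163802424, minus strand: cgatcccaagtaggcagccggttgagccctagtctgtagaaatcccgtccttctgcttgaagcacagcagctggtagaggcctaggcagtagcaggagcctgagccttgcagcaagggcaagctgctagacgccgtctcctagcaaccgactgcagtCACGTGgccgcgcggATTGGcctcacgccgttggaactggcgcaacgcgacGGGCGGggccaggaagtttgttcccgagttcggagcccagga
Atp6ap2, chrX:12883671-12883920, minus strand: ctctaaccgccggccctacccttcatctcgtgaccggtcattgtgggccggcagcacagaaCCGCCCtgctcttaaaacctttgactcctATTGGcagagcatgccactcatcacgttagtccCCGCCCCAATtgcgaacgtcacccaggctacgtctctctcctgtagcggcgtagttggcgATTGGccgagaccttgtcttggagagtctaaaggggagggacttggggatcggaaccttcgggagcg
Ace, chr10:91409879-91410128, plus strand: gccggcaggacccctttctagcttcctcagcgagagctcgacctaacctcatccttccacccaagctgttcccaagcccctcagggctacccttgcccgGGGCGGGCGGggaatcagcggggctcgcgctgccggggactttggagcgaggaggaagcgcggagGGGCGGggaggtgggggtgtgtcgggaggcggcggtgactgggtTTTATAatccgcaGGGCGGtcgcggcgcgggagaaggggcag
Agtr1a, chr17:34435433-34435682, minus strand: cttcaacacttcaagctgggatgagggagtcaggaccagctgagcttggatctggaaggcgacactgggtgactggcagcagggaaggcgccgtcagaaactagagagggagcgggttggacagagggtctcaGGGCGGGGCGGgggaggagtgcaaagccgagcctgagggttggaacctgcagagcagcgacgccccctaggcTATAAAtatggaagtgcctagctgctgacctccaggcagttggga

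RefSeq's promoter table matched 7 of the 8 members, all but Agt. The windows of Ace and Agtr1a held 1 TATA box each, with 4 and 2 GC boxes, and those of Agtrap and Atp6ap2 held none, with 1 and 3 CCAAT boxes and 1 and 2 GC boxes. Over 33469 promoters of the same length, TATAAA was found in 12.9%, GGGCGG in 30.5%, CCAAT in 34.0% and CACGTG, which among the members was found in Agtrap, in 5.59%. Agtr1b and Agtr2, which were near 0 in these libraries, had 2 and 1 CCAAT boxes and no match to the other motifs, and Mas1 had no match. These are matches of letters and not sites of binding, and the count table has another build than these coordinates.

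Angiotensinogen, the precursor of the angiotensin peptides, is made mainly by the liver and also by adipocytes. Its gene Agt (NCBI gene 24179) was low in 11 of the 12 libraries. The WKY libraries had 1.11, 1.83 and 1.69 CPM (13, 21 and 19 reads), the SHR libraries 3.61, 1.18 and 1.96 CPM, the ARB libraries 2.05, 22.8 and 1.82 CPM, and the ARNI libraries 3.16, 1.02 and 4.68 CPM. The highest value, 331 reads in ARB replicate 2, lay in the library with the highest Adipoq, and the next, 69 reads, in the other library with adipocyte markers, ARNI replicate 3. The other 10 libraries lay between 1.02 and 3.61 CPM. Group means were 1.54 ± 0.38 (WKY), 2.25 ± 1.24 (SHR), 8.88 ± 12.0 (ARB) and 2.95 ± 1.84 CPM (ARNI; SD, n = 3), and no neighbours in this order were apart beyond their spread.

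The fitted log2 fold change of Agt in ARB against SHR was 1.94 (SE 1.01, adjusted p = 0.9999 by edgeR), and without ARB replicate 2 it was -0.14. DESeq2 gave no p for Agt in this comparison. Over the whole list of 6 adipocyte markers, Plin1 was at 68.9 and 99.5 CPM, Cidec at 68.9 and 45.1 CPM, Lep at 16.0 and 2.58 CPM and Ucp1 at 15.6 and 182 CPM in ARB replicate 2 and ARNI replicate 3. Fabp4, which endothelial cells also express, was at 83.3 to 367 CPM in all 12 libraries and did not set them apart. The liver marker Alb was at 11.2 and 12.6 CPM in the same 2 libraries and at most 0.44 CPM elsewhere, while Apoa1, another liver gene, was at most 0.41 CPM in every library. The part of adipose tissue in the Agt level was not tested.

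**Figure D1:**
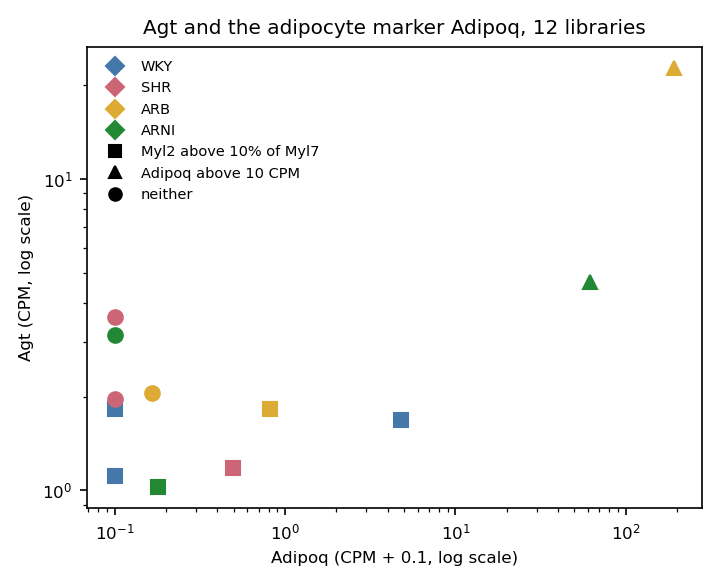
Agt (vertical axis, CPM, log scale) against the adipocyte marker Adipoq (horizontal axis, CPM + 0.1, log scale), 1 point per library, coloured by group and shaped by marker class. The 2 libraries with Adipoq at 61.7 and 192 CPM have the highest Agt, 4.68 and 22.8 CPM, and the other 10 lie between 1.02 and 3.61 CPM.

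The genes whose pattern was most like that of Agt over the 12 libraries, by Pearson correlation of log2 CPM among 13524 genes, were Fasn (r = 0.95), Acly (r = 0.92), Nat8l (r = 0.91), Srebf1 (r = 0.91) and RGD1309534 (r = 0.88). Fasn, fatty acid synthase, was at 945 CPM in ARB replicate 2, at 90.8 CPM in ARNI replicate 3 and at 10.2 to 37.0 CPM in the other 10 libraries. Acly, which makes the acetyl-CoA used for fatty acid synthesis, was at 264 and 76.7 CPM in those 2 libraries and at 25.6 to 39.8 CPM elsewhere. All points share libraries and depth with Agt, and the correlation is a description.

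Ace (gene 24310) encodes the converting enzyme, which sits mainly on endothelial cells. It had 19.8, 16.6 and 22.6 CPM in WKY, 8.43, 15.7 and 22.2 CPM in SHR, 7.87, 13.1 and 12.8 CPM in ARB, and 9.42, 14.4 and 24.0 CPM in ARNI libraries. The WKY libraries lay close together, and the SHR and ARNI libraries each spread from below 10 to above 22 CPM. The means, 19.7 ± 2.98, 15.4 ± 6.87, 11.3 ± 2.96 and 15.9 ± 7.39 CPM, differed by less than that spread between SHR, ARB and ARNI. The fitted log2 fold change in SHR against WKY was -0.50 (SE 0.32, adjusted p = 0.287, edgeR), with overlapping groups. Under the drugs it was -0.41 (SE 0.36) in ARB against SHR, 0.12 (SE 0.44) in ARNI against SHR and 0.54 (SE 0.37) in ARNI against ARB, none of which passed.

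Ace was lowest in replicate 1 of each SHR-strain group, at 7.87 to 9.42 CPM. The labels do not say whether a replicate number marks a shared day or batch. The 8 endothelial markers summed to 1109 to 1171 CPM in WKY and to 790 to 1748 CPM over the other 9 libraries. The 3 libraries with the lowest Ace had sums of 1403, 1545 and 1748 CPM, among the 4 highest. Vwf made up 674, 780 and 902 CPM of these sums, and the list was not uniform. Against WKY, Vwf and Pecam1 (216, 247 and 269 CPM) were higher in these libraries. Cdh5 (87.4, 106 and 117 CPM) and Kdr (96.2, 84.5 and 90.9 CPM) were below all WKY libraries. The part of endothelial content in the Ace level was not tested. SHR replicate 3, with a sum of 1551 CPM, had Ace at 22.2 CPM. The genes most like Ace were Dpp4 (r = 0.96), another peptidase of the cell surface, Susd2 (r = 0.94), Kcnmb1 (r = 0.94), Endod1 (r = 0.94) and Dll1 (r = 0.93).

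Agtr1a (gene 24180), the main type 1 angiotensin receptor of rodents and the target of valsartan, was at a low level in every group. Values were 4.35, 4.52 and 3.64 CPM in WKY, 2.67, 4.18 and 5.83 CPM in SHR, 3.11, 5.09 and 3.88 CPM in ARB, and 2.40, 2.99 and 8.55 CPM in ARNI libraries. The 4 groups overlapped throughout, and their means of 4.17 ± 0.465, 4.23 ± 1.58, 4.03 ± 0.999 and 4.65 ± 3.39 CPM could not be ordered beyond the spread. The highest value, 126 reads, lay in ARNI replicate 3, 1 of the 2 libraries with adipocyte markers. The other, ARB replicate 2, was at 5.09 CPM, below SHR replicate 3 at 5.83 CPM. ARNI replicate 3 also had the highest sum of pericyte and smooth muscle markers, 1016 CPM against at most 746 CPM elsewhere. The list did not move together there. Acta2 (351 CPM), Tagln (154 CPM), Myh11 (154 CPM), Cspg4 (53.3 CPM) and Cnn1 (24.2 CPM) were at their highest. Abcc9, at 202 CPM, was at its lowest of the 12 libraries, and Pdgfrb (68.8 CPM) and Kcnj8 (9.77 CPM) were below all WKY libraries. The part of these cell types in the Agtr1a level was not tested. Fitted log2 fold changes were -0.12 (SE 0.29, SHR against WKY), -0.04 (SE 0.33, ARB against SHR), 0.19 (SE 0.54, ARNI against SHR) and 0.24 (SE 0.49, ARNI against ARB), and without ARNI replicate 3 the third was -0.51. None passed.

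Agtr1a was the member whose levels followed those of Ace most closely, with r = 0.75 over 12 libraries and r = 0.85 over the 9 libraries of SHRs. Within each of the 3 groups of SHRs the libraries ranked in the same order for both genes, and in the WKY group they did not. The genes most like Agtr1a were Tspan17 (r = 0.96), Scn2b (r = 0.95), Gli1 (r = 0.94), Ntrk3 (r = 0.92) and Tenm3 (r = 0.91). Gli1, a transcription factor of Hedgehog signalling, was at 7.76 CPM in ARNI replicate 3, its highest value.

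The other angiotensin receptors were close to or below detection. Agtr1b (gene 81638), the second type 1 receptor gene of rodents, had 0 reads in all 12 libraries. Agtr2 (gene 24182), the type 2 receptor, had 1 read in ARB replicate 2, 1 read in ARNI replicate 3 and 0 elsewhere. At the depth of each library, a count of 0 allows 0.190 to 0.267 CPM, so a level under that limit could not be told from none, and neither gene was kept for testing.

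Mas1 (gene 25153), the receptor for a shorter angiotensin peptide, had 10, 11 and 11 reads in WKY, 10, 13 and 12 in SHR, 3, 12 and 7 in ARB, and 12, 2 and 22 in ARNI libraries. This came to 0.852, 0.957 and 0.978 CPM, to 0.669, 1.02 and 0.813 CPM, to 0.198, 0.825 and 0.555 CPM, and to 0.758, 0.157 and 1.49 CPM. ARB replicate 1 and ARNI replicate 2 were at or below the 3-read limit. For the 2 reads of ARNI replicate 2, the exact binomial 95% interval runs from 0.0190 to 0.568 CPM, and for the 22 reads of ARNI replicate 3 from 0.935 to 2.26 CPM, so these libraries of 1 group differed beyond counting error, which is all that such an interval covers. Fitted log2 fold changes were -0.29 (SE 0.33), -0.64 (SE 0.54), -0.01 (SE 0.70) and 0.64 (SE 0.80) in the 4 comparisons in the order above, and none passed.

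Agtrap (gene 298646), on chromosome 5 in RefSeq, encodes the type 1 receptor-associated protein. WKY libraries were at 14.1, 12.8 and 12.6 CPM, while values were 29.4, 18.5 and 27.2 CPM in SHR, 27.4, 27.5 and 17.6 CPM in ARB, and 22.2, 11.7 and 16.8 CPM in ARNI libraries. All 3 SHR libraries lay above all 3 WKY libraries, and the ARB libraries covered nearly the same range as SHR. The means were 13.1 ± 0.812 (WKY), 25.0 ± 5.73 (SHR), 24.2 ± 5.71 (ARB) and 16.9 ± 5.28 CPM (ARNI). In this order of SHR, ARB, ARNI and WKY, SHR did not differ from ARB beyond the spread, ARNI overlapped both, and its lowest library was below all WKY libraries.

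In SHR against WKY, the fitted log2 fold change of Agtrap was 0.79 (SE 0.17), or 1.73-fold, with an adjusted p of 0.0239 by edgeR's quasi-likelihood test, below the 2-fold change that the study asked of a differentially expressed gene. Among 13794 genes tested in this comparison, 20.6% passed and 12.3% passed as higher, so 1 of 6 tested members is near that share. The call was not stable. Over 12 distinct fits, the one above included, it was made in 7, with adjusted p from 0.0018 to 0.0959 and log2 fold changes from 0.65 to 0.94. It was lost without WKY replicate 1 (adjusted p = 0.0797), WKY replicate 2 (0.0959), WKY replicate 3 (0.0949) or SHR replicate 1 (0.0671), and in a fit of all 12 libraries (0.0524), and with the replicate number as a block it was at 0.0496, against 0.0018 without SHR replicate 2. In that last fit 5310 genes passed in place of 2837.

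In the libraries of SHRs, Agtrap had a median of 27.3 CPM in those without ventricular markers and of 17.6 CPM in those with them. The ranges overlapped only through ARNI replicate 3. The 6 without ventricular markers had 16.8 to 29.4 CPM, and the 3 with them had 11.7 CPM in ARNI replicate 2, where Myl7 was nearly absent, and 17.6 and 18.5 CPM in ARB replicate 3 and SHR replicate 2, where both light chains were present. The WKY libraries, which carried ventricular markers, had 12.6 to 14.1 CPM. ARNI replicate 3, 1 of the 6 without ventricular markers and a library with adipocyte markers, was at 16.8 CPM, below both mixed libraries. The part of chamber composition in the difference of Agtrap was not tested, and in SHR against WKY it cannot be told apart from strain.

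**Figure D2:**
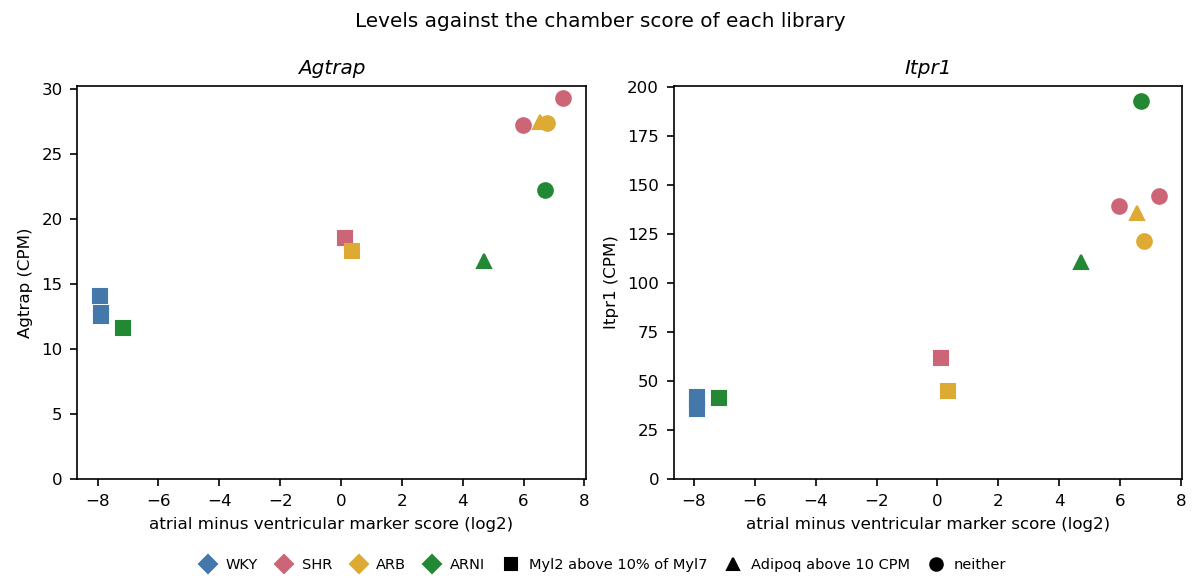
Agtrap and Itpr1 (vertical axes, CPM) against the chamber score of each library, the mean log2(CPM + 1) of atrial markers minus that of ventricular markers (horizontal axis), 1 point per library. WKY libraries lie near -7.9 with Agtrap at 12.6 to 14.1 CPM, ARNI replicate 2 at -7.18 with 11.7 CPM, and the 6 libraries with scores of 4.71 or more at 16.8 to 29.4 CPM.

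Under the drugs, Agtrap gave log2 fold changes of -0.02 (SE 0.21) in ARB against SHR, -0.50 (SE 0.25, unadjusted p = 0.0868, adjusted p = 0.999) in ARNI against SHR and -0.47 (SE 0.25) in ARNI against ARB by edgeR. Without the library with ventricular markers that each of these groups holds, the values of ARNI against SHR and ARNI against ARB were -0.49 and -0.47. Agtrap was lower in ARNI than in SHR in 3 of 3 same-numbered pairs, and with the replicate block the log2 fold change was -0.51 (adjusted p = 0.844, edgeR). No value passed under any setting run, with adjusted p of at least 0.515 in all of them. All 12 values of Agtrap were not whole, since the counting shared some reads between it and other genes, whereas the counts of the other 7 members were whole. Genes most like Agtrap were Smg6 (r = 0.97), Cep41 (r = 0.97), Pias2 (r = 0.97), Qpctl (r = 0.97) and Nudt11 (r = 0.97), and Cep41 had 2.40 to 2.81 CPM in WKY, 2.67 CPM in ARNI replicate 2 and up to 10.6 CPM in the other libraries.

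Atp6ap2 (gene 302526), on the X chromosome in RefSeq, encodes the prorenin receptor, which is also an accessory subunit of the vacuolar proton pump. It had 10.7, 10.3 and 10.4 CPM in WKY, 14.5, 12.8 and 16.5 CPM in SHR, 14.3, 14.4 and 9.43 CPM in ARB, and 15.0, 7.94 and 18.9 CPM in ARNI libraries. SHR libraries were all above WKY libraries, and both treated groups held a library below all WKY libraries. The means were 10.5 ± 0.247, 14.6 ± 1.88, 12.7 ± 2.85 and 13.9 ± 5.57 CPM. The fitted log2 fold change in SHR against WKY was 0.34 (SE 0.12, adjusted p = 0.0774, edgeR), which did not pass, and without SHR replicate 2 it was 0.40 (adjusted p = 0.0409, edgeR), which did.

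Atp6ap2 had 7.94 to 12.8 CPM in the 3 libraries of SHRs with ventricular markers and 14.3 to 18.9 CPM in the other 6. These ranges of unscaled CPM did not overlap. Scaling by TMM narrows the gap, since SHR replicate 2, at 12.8 CPM, had a factor of 0.989 and ARB replicate 2, at 14.4 CPM, one of 1.10. The share of all genes that split in this way was not computed, and the part of chamber composition was not tested. The values of Atp6ap2 under the drugs were -0.17 (SE 0.18) in ARB against SHR, -0.01 (SE 0.27) in ARNI against SHR and 0.17 (SE 0.29) in ARNI against ARB on the log2 scale, and none passed. Genes most like it were Zfp365 (r = 0.96), Lamb3 (r = 0.96), Klf5 (r = 0.95), Acbd3 (r = 0.95) and Mbp (r = 0.94). Lamb3, a laminin chain, was at 9.57 to 9.63 CPM in WKY, 6.45 CPM in ARNI replicate 2 and 7.37 CPM in ARB replicate 3.

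**Figure D3:**
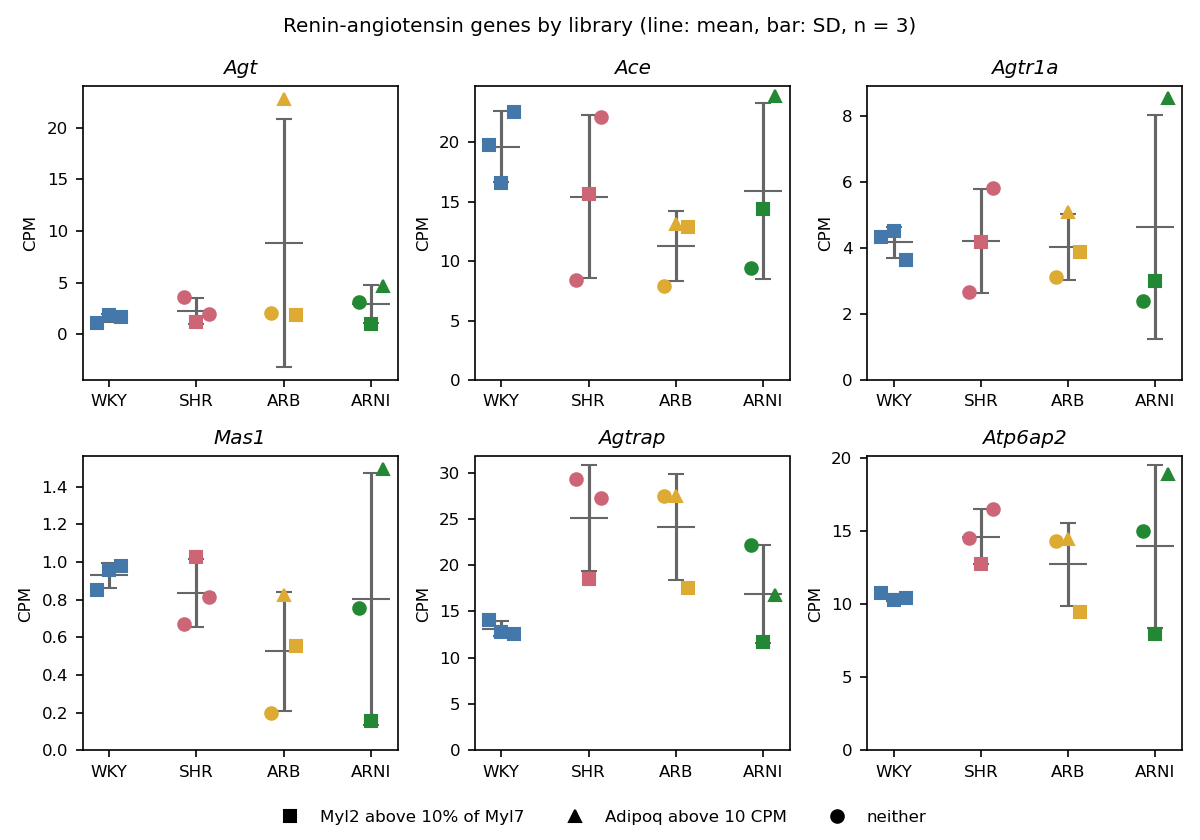
CPM (vertical axes) of the 6 members with reads in every library, by group (horizontal axes), with 1 point per library, a line at the mean and a bar of 1 SD (n = 3), which for Agt in ARB extends below 0. Agtrap and Atp6ap2 have SHR points above all WKY points, and Agt has a single high point, 22.8 CPM in ARB replicate 2.

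Between SHR and WKY, 2 of the 6 tested members, Agtrap and Atp6ap2, had groups that did not overlap, both higher in SHR, where 49.6% of all genes tested did not overlap and 33.7% were higher. After scaling by TMM the same 2 members stayed apart. Unscaled CPM of all genes had a median log2 ratio of 0.15 in this comparison and TMM-scaled values one of 0.01, so CPM ratios exceed the fitted fold changes by about that shift. The median fitted log2 fold change was 0.11 over the 6 members and 0.01 over all genes, with 3 members above and 3 below 0.

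In ARB against SHR, 0 of 6 tested members passed by edgeR, and none had p below 0.05 before adjustment or passed by DESeq2. Of 13979 genes 0.0% passed by edgeR, with 225 at an unadjusted p below 0.05 and 3 passing by DESeq2. No member had groups that did not overlap, against 5.39% of all genes. In ARNI against SHR, 0 of 6 members passed by either tool, with 0.0% of 13955 genes by edgeR, 227 at an unadjusted p below 0.05 and 9 passing by DESeq2, and no member was apart, against 6.56% of genes. In ARNI against ARB the members' counts were again 0, with 0.0% of 13948 genes passing by edgeR, 539 at an unadjusted p below 0.05, 23 passing by DESeq2 and 10.5% of genes apart. The comparisons with SHR share its 3 libraries.

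**Figure D4:**
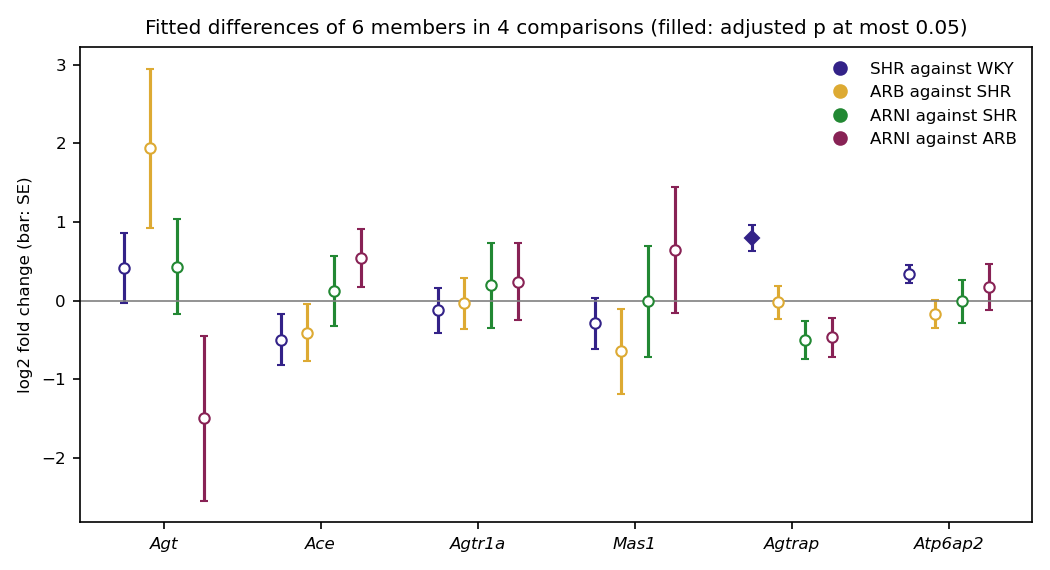
Fitted log2 fold changes (vertical axis) of the 6 tested members in 4 comparisons, with bars of 1 SE. The filled symbol, Agtrap in SHR against WKY at 0.79, is the only value with an adjusted p of at most 0.05, and Agt in ARB against SHR has the largest value, 1.94, with an SE of 1.01.

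Further genes of the pathway were taken from 4 fixed lists. Of 20 other enzymes and receptors of angiotensin peptides, 16 were tested in SHR against WKY, where 8.26% of all genes passed as lower and 0 of these passed as higher and 3 as lower. Prep, prolyl endopeptidase, had 46.5, 48.9 and 48.7 CPM in WKY and 36.8, 36.3 and 37.1 CPM in SHR (log2 fold change -0.52, SE 0.08, adjusted p = 0.0114, edgeR). Anpep, aminopeptidase N, fell by 1.14 on the log2 scale (SE 0.28, adjusted p = 0.0352), with 13.2, 15.5 and 16.0 CPM in WKY and 4.41, 8.83 and 9.08 CPM in SHR. Mme, neprilysin and the target of sacubitril, fell by 2.03 (SE 0.55, adjusted p = 0.0450), at 2.30, 2.09 and 2.40 CPM in WKY and 0.201, 0.394 and 1.22 CPM in SHR. Its 2 highest libraries were those with adipocyte markers, at 4.13 CPM in ARB replicate 2 and 6.99 CPM in ARNI replicate 3. The median log2 fold change of the list was -0.19 against 0.01 over all genes.

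Of 7 genes of aldosterone and corticosteroid action, 4 were tested and 1 passed, as lower, against 8.26% of all genes. Hsd11b1, which regenerates active glucocorticoid, had 39.3, 40.2 and 35.5 CPM in WKY and 22.7, 19.8 and 27.6 CPM in SHR (log2 fold change -0.85, SE 0.11, adjusted p = 0.0067, edgeR). Nr3c2, the mineralocorticoid receptor, was at 41.7 to 44.0 CPM in WKY and 49.3 to 59.9 CPM in SHR (log2 fold change 0.21, SE 0.12, adjusted p = 0.223). In unscaled CPM its groups did not overlap, where 49.6% of all genes tested did not overlap and 33.7% were higher. After scaling by TMM, SHR replicate 3 (factor 1.11) lay below WKY replicate 3 (factor 0.938), so the groups overlapped.

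Of 27 genes that couple the type 1 receptor to the cell, 27 were tested, and 4 passed as higher and 1 as lower in SHR, a count near the 12.3% and 8.26% of all genes that did so. Src, a tyrosine kinase, had 15.0, 15.3 and 14.7 CPM in WKY and 27.4, 24.0 and 30.5 CPM in SHR (log2 fold change 0.72, SE 0.10, adjusted p = 0.0073, edgeR). Prkcd, a protein kinase C, rose by 0.70 (SE 0.12, adjusted p = 0.0131) and Itpr1, a calcium release channel, by 1.41 (SE 0.29, adjusted p = 0.0220). Itpr1 was at 41.4 to 61.9 CPM in the 3 libraries of SHRs with ventricular markers and at 111 to 193 CPM in the other 6. How many of all genes split in this way was not computed, so the split cannot be read as particular to Itpr1. Rgs2 and Rgs4 encode regulators that switch off G proteins of this receptor. Rgs2 rose by 1.32 (SE 0.30, adjusted p = 0.0295), and Rgs4 fell by 0.68 on the log2 scale (SE 0.17, adjusted p = 0.0360).

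Of 14 subunits of the vacuolar proton pump, of which Atp6ap2 is a partner, 14 were tested and 2 passed as higher, near the 12.3% of all genes. Atp6v1d rose by 0.46 (SE 0.09, adjusted p = 0.0216, edgeR), from 95.1 to 101 CPM in WKY to 139 to 160 CPM in SHR, and Atp6v0b by 0.54 (SE 0.14, adjusted p = 0.0403). The 4 lists together had 11 calls among 61 genes, where 20.6% of all genes passed. They had 25 without SHR replicate 2, where 5310 of 14035 genes passed, and 2 without each of the 3 WKY replicates in turn. Of these 11 genes Src alone passed in 12 of 12 distinct fits, Hsd11b1 in 11, and Mme in 4. All these genes differ between groups that also differ in chamber markers, whose part was not tested. In the comparisons with drugs 0 of 60 genes of the lists passed by edgeR, and 0 (ARB against SHR), 1 (ARNI against SHR) and 3 (ARNI against ARB) had an unadjusted p below 0.05. DESeq2 passed 0 of the 64, 64 and 65 genes it tested there.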

How the data were processed

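Left atrial RNA was sequenced as single-end reads of 50 bases on a BGISEQ-500. The authors mapped the reads with HISAT2 2.0.4 and Bowtie2 2.2.5 (Rnor_6.0, per the submitters' processing notes) and deposited expected counts per gene, estimated by RSEM and not normalized, of which 23.6% were not whole. Of 37246 genes listed, 21239 had counts. The same table holds the authors' own SHR/WKY log2 fold change and p-value, which were not used.

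Expected counts were rounded, genes with low counts were removed (filterByExpr), and libraries were scaled by TMM. The quasi-likelihood test of edgeR 4.0.16 (R 4.3.3) compared the 6 libraries of each pair of groups, with Benjamini-Hochberg adjustment over all genes tested. CPM are counts per 1000000 of the unscaled library total. Because no molecular identifiers were used, reads are not separate molecules, and intervals and floors reflect counting error alone. DESeq2 1.42.0, its size factors, no filter, a fit of all 12 libraries, a replicate block, each library left out in turn and the libraries with ventricular markers left out were alternatives, and a chamber score was a covariate for the drugs. Leaving out the libraries with adipocyte markers was added after seeing the data. The steps were tested on simulated data. At a simulated dispersion (spread between replicates) of 0.1, 13.4% of 2-fold changes passed in SHR against WKY and 11.2% in ARNI against SHR. At a dispersion of 0.02, 94.9% and 88.8% passed. A change of that size could thus be missed where replicates spread widely. Replicates differed by 4.03 to 6.36 times sampling noise (chi-square per degree of freedom) in WKY and by 23.5 to 231 times in the other groups. None was thus a copy of another. The simulation gave both groups of a comparison the same dispersion, so it did not cover this uneven spread.

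Same-numbered ARNI and SHR libraries deviated together (correlations of 0.19 to 0.51, all 3 over 0.1), and 6 of 6 libraries correlated best with their own number. The labels name no pairs, and in both groups replicate 2 was the library with ventricular markers. The main fit did not use the numbers. For Agtrap, the same-numbered pairs and the fit with the replicate block are given beside it. The members and lists were chosen with earlier results of these data known. Named are all members, up to 6 passing genes per list with the smallest adjusted p, Mme, Anpep and Nr3c2, and for members at a mean of 1 CPM or more the 5 genes most like them. Some genes that this rule names are not reported here. Promoters and gene order came from RefSeq (GRCr8). Python 3.11.15 with pandas 2.3.3, numpy 2.4.6, scipy 1.17.1 and matplotlib 3.10.9 was used.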

Additional observations from a re-analysis of the deposited data

How the results depend on the processing

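In SHR against WKY, the number of genes that passed was 2837, against 1178 in a fit of all 12 libraries, 1030 with the replicate block and 5310 without the library of SHRs with ventricular markers (SHR replicate 2), and 415 to 5310 with single libraries left out, the lowest without WKY replicate 2. The number of members that passed was 1, against 0 in the 12-library fit, 2 without SHR replicate 2 and 0 to 2 with single libraries left out. The cause was not tested. Same-numbered libraries did not deviate together in SHR against WKY (correlations of -0.07 to 0.03). In ARB against SHR (-0.25 to 0.42) and ARNI against ARB (-0.45 to 0.52), replicate 1 deviated together, at 0.42 and 0.52, and replicates 2 and 3 did not. In each of these comparisons 2 of 6 libraries correlated best with their own number. The block changed no call of a member. DESeq2 passed 3, 9 and 23 genes in ARB against SHR, ARNI against SHR and ARNI against ARB, and edgeR 0.

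Members reversed only where no value passed. Without the adipocyte-marker libraries, log2 fold changes turned to -0.14 for Agt in ARB against SHR, to -0.013 (Agt), -0.22 (Ace) and -0.51 (Agtr1a) in ARNI against SHR, and to 0.13 (Agt), -0.33 (Agtr1a) and -0.019 (Atp6ap2) in ARNI against ARB, where Mas1 fell below the filter. In ARNI against SHR, Mas1 turned to 0.0086 with DESeq2's size factors, 0.64 without ventricular-marker libraries and 0.047 with the chamber score, and Atp6ap2 to 0.012 by DESeq2, 0.010 with its size factors, 0.18 without ventricular-marker libraries and 0.13 with the score.

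With single libraries left out, values ranged from -0.11 to 0.70 (Agt) and -0.37 to 0.12 (Agtr1a) in SHR against WKY, from -0.14 to 2.47 (Agt), -0.28 to 0.21 (Agtr1a) and -0.17 to 0.13 (Agtrap) in ARB against SHR, from -0.013 to 0.95 (Agt), -0.22 to 0.42 (Ace), -0.51 to 0.52 (Agtr1a), -0.74 to 0.43 (Mas1) and -0.25 to 0.23 (Atp6ap2) in ARNI against SHR, and from -1.97 to 0.58 (Agt), -0.46 to 0.56 (Agtr1a), -0.085 to 1.08 (Mas1) and -0.062 to 0.40 (Atp6ap2) in ARNI against ARB. Depth limits Mas1, with 2 to 22 reads, and leaves Agtr1b and Agtr2 near or below detection.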

Other observations

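Rgs2, whose product shortens signalling of the type 1 receptor, had the smallest p among the genes of the 4 pathway lists in ARNI against SHR. The SHR libraries had 28.3, 14.3 and 37.1 CPM, the ARB libraries 14.6, 21.6 and 8.88 CPM, the ARNI libraries 13.5, 9.59 and 11.9 CPM, and the WKY libraries 8.70, 10.8 and 9.15 CPM. The 3 ARNI libraries lay below the 3 SHR libraries, and 5.18% of all genes were likewise apart and lower in this comparison. ARNI replicate 2, which carries ventricular markers as the WKY libraries do, lay within the WKY range. Rgs2 was at 8.88 to 14.3 CPM in the 3 libraries of SHRs with ventricular markers and at 11.9 to 37.1 CPM in the other 6, and the part of these markers in its difference was not tested. The log2 fold change in ARNI against SHR was -1.10 (SE 0.32, unadjusted p = 0.0131, adjusted p = 0.999, edgeR), so it failed the correction. It was named after its values were seen.

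In the RefSeq gene order, Agtrap lies near the natriuretic peptide genes Nppa and Nppb. The genes around it were examined after the values were seen. In SHR against WKY, the log2 fold change was 7.82 for Nppa (adjusted p = 0.0070, edgeR) and 2.29 for Nppb (adjusted p = 0.0803), against 0.79 for Agtrap. Clcn6, which lies between them, gave -0.15 (adjusted p = 0.267), and on the other side Mad2l2 gave 0.04 (adjusted p = 0.815). Draxin, next to Agtrap, was at 0.0387 to 0.780 CPM.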
